A study of Mus musculus with 16 samples.

Results

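In mouse embryonic stem cells, 817 stretches of chromatin carried a called H3K27ac peak in both Mettl14 control libraries and in neither Mettl14 knockout library. They were selected on their H3K27ac calls, by merging the peaks of the 4 H3K27ac lists wherever peaks shared at least 1 bp, which gave 36453 regions, and by keeping those called in both control lists and in no knockout list. The control-only regions thus made up 2.24% of all merged regions. They covered 838.9 kb of the 35468.8 kb that any list called, or 2.37%.

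The series examined how histone marks differ when Mettl14 is removed. It holds peak lists for 3 marks, H3K27ac, H3K4me3 and H3K27me3, from 2 control and 2 knockout libraries each, and its 4 input libraries were not analysed here. The controls are called Mettl14 Control and the knockout cells Mettl14 CKO in the labels, which give no allele, deleted exon, Cre driver or number of clones. Both are C57BL/6 embryonic stem cells grown in DMEM with serum, LIF, the GSK3 inhibitor CHIR99021 and the MEK inhibitor PD0325901, so all libraries share these inhibitors, and chromatin of another source was added to each precipitation as a spike-in. A Mettl3 knockout, which the design also names, was not analysed here. Nothing in the labels says that the libraries of a group came from separate cultures, so p-values measure only the spread between these libraries, which may be technical.

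H3K27ac is the acetylation of lysine 27 on histone H3. It is written mainly by p300 and CBP, is removed by histone deacetylases and marks active promoters and enhancers. METTL14 forms with METTL3 the enzyme that writes N6-methyladenosine (m6A) on RNA, and in embryonic stem cells m6A shortens the life of many transcripts, among them those of pluripotency factors and of chromatin regulators. H3K4me3 marks promoters that are active or poised, and H3K27me3 is laid by Polycomb repressive complexes.

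The deposited lists hold only peak positions, with no read number, height or p-value, so a region that is not called may still carry the mark and the depth behind each call is unknown. In bulk chromatin, a mark on fewer cells and a weaker mark in each cell cannot be told apart. Per the labels, the H3K27ac libraries list the antibody name of the H3K4me3 libraries, and the mark in the title was used. Which antibody was used was not tested. No H3K4me3 peak was called in any list at 745 of the 817 control-only regions (91.2%), against 83.3% of all merged regions. The 4 H3K27ac lists were of similar length, from 13520 to 15541 peaks, whereas the H3K4me3 lists held 2859 and 2431 peaks in control against 8131 and 8055 in knockout, and the H3K27me3 lists 6312 and 7203 against 11349 and 11446. Of 8 embryonic stem cell markers, 4 and 4 had H3K27ac at a gene end in control and 5 and 6 in knockout: Pou5f1, Sox2, Nanog and Klf4 in all 4 lists, Zfp42 in both knockout lists and Tfcp2l1 in knockout replicate 2. None of 8 fibroblast markers, which feeder cells would carry, had it in any list. Of 8 trophectoderm markers 0 and 1 were called in control and 2 and 1 in knockout, and of 8 primitive endoderm markers 1 and 0 against 0 and 0. The gene end of Mettl14 was called for H3K27ac in control replicate 1 and in both knockout lists. A peak at the gene end does not check a deletion elsewhere in the gene.

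Promoter sequences are shown for 6 of the 11 control-only regions at the end of a named gene for which at least 50 of the 250 bases before the annotated start lay inside the region and all lay outside every annotated gene span. Zfp958, Zbtb8a and Kdelr1 were the 3 whose narrower control peak exceeded the smallest width, and Ado, Atic and Elk1 were the first in table order of 8 tied at that width. Of the 250 bases printed, all lay inside the control-only region for Zfp958 and Ado, 91 for Zbtb8a, 123 for Kdelr1, 127 for Atic and 138 for Elk1. The other printed bases lay outside it. Sequences are from RefSeq, build GRCm38 (mm10), written 5′ to 3′ on the gene's strand and ending at the base before the start. Capitals mark matches, on either strand, to the letters of 4 promoter elements. These are the GC box, which Sp1 family factors bind (letters GGGCGG), the CCAAT box that NF-Y binds and whose name spells it, the E-box of basic helix-loop-helix factors (letters CACGTG) and the element of the ETS family of transcription factors (letters CCGGAAG). Zfp958, a zinc finger gene, lies at chr8:4612920-4613169 on the plus strand, Zbtb8a, a BTB zinc finger gene, at chr4:129378029-129378278 on the minus strand, and Kdelr1, the receptor that returns proteins to the endoplasmic reticulum, at chr7:45872590-45872839 on the plus strand. Ado, which encodes a cysteamine dioxygenase, lies at chr10:67548956-67549205 on the minus strand, Atic, an enzyme of purine synthesis, at chr1:71556906-71557155 on the plus strand, and Elk1, an ETS transcription factor activated by ERK, at chrX:20950609-20950858 on the minus strand.
Zfp958: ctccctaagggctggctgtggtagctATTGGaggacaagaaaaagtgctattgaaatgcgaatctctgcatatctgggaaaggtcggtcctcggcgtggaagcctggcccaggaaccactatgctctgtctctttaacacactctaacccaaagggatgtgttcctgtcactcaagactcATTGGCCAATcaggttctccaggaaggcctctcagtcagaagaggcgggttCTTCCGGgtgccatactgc
Zbtb8a: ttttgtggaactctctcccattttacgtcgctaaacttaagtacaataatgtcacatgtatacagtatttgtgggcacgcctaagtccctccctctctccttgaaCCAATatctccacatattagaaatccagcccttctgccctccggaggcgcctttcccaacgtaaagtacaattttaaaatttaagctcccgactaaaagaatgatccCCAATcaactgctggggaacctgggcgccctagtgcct
Kdelr1: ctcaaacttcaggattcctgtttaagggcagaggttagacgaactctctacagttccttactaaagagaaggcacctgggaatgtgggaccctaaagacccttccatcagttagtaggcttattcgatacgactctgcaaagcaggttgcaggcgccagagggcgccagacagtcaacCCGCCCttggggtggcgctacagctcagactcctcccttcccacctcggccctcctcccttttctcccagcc
Ado: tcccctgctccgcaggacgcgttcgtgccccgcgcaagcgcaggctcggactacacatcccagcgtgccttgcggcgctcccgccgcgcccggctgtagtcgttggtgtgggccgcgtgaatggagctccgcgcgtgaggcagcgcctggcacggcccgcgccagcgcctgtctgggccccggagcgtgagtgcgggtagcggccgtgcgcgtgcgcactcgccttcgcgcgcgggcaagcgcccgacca
Atic: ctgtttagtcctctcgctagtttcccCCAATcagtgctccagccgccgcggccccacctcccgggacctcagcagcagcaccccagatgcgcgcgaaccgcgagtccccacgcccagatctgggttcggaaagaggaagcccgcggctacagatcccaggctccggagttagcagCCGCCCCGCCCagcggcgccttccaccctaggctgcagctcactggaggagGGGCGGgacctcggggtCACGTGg
Elk1: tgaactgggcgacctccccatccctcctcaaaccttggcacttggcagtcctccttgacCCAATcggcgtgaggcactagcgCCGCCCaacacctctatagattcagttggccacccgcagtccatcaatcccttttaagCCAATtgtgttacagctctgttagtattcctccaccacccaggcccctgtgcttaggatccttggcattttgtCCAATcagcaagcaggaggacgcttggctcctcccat

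These promoters were unlike one another. The stretch at Zfp958 lay wholly inside its control-only region, had a GC content of 52.4% and held 3 CCAAT boxes and 1 ETS element. That of Ado also lay wholly inside, had a GC content of 75.2% with 41 CpG dinucleotides and held none of the 7 motifs searched. Atic had 3 GC boxes, 1 E-box and 1 CCAAT box, Elk1 had 3 CCAAT boxes and 1 GC box, Zbtb8a had 2 CCAAT boxes and Kdelr1 had 1 GC box. Counts at Atic, Elk1, Zbtb8a and Kdelr1 cover the whole printed stretch, including bases outside the region.

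Over all control-only regions, 86 promoter entries of 70 genes touched a region, out of 32851 entries of 27025 genes in the table. Their median GC content was 59.8% and their median number of CpG dinucleotides was 12 per promoter, against 52.4% and 6 over all entries. The promoters under regions called in all 4 lists were richer still, with 62.8% and 20 CpG dinucleotides. A GC box stood in 54.7% of the promoters on control-only regions, 60.8% of those on regions called in all 4 lists and 32.7% of all. For the ETS element the shares were 17.4%, 15.2% and 6.91%. For knockout-only regions the GC box share was 64.8% and the ETS share 19.1%. On control-only regions the CCAAT box stood in 27.9% against 33.8% of all promoters, and the E-box in 5.81% against 6.02%. The TATA box (TATAAA) stood in 6.98% against 12.4%, and the cAMP response element (TGACGTCA) in 2.33% against 1.55%. The octamer bound by POU factors (ATTTGCAT) matched in 0 of these 86 windows, against 1.6% of all. Matches are letters in a window and not sites of binding.

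The control-only set is one of 15 patterns in which a region could be called. Regions called in a single list were by far the most frequent, 24880 or 68.3% of the total, with 6941 in control replicate 1 alone and 5600 in control replicate 2 alone. A call in both control lists was found at 4981 regions, and of these 2913 were also called in both knockout lists, 1251 in 1 knockout list and 817 in none. The control-only share of regions called in both control lists was therefore 16.4%. The mirror set, called in both knockout lists and in no control list, held 1298 regions, which is 3.56% of all merged regions and 21.4% of the 6067 called in both knockout lists. Within each control list the regions drew on few of its peaks, 821 of 15541 (5.28%) in replicate 1 and 826 of 13520 (6.11%) in replicate 2. The regions were chosen by these H3K27ac calls, so calls and widths are given as a description.

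**Figure D1:**
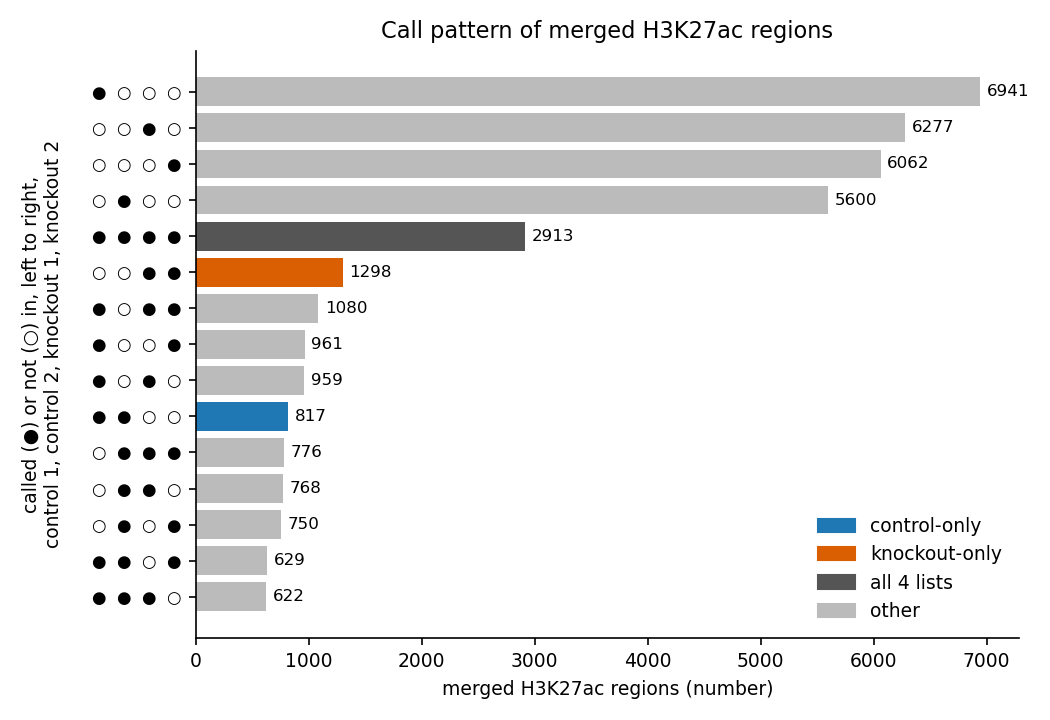
Number of merged H3K27ac regions (x axis) for each pattern of calls (y axis; filled and open circles give called and not called in control replicates 1 and 2 and knockout replicates 1 and 2, from left to right). The 817 control-only regions (blue) are fewer than the 1298 knockout-only regions (orange) and the 2913 regions called in all 4 lists (dark grey), and the 4 longest bars are calls in a single list.

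Most control-only regions were narrow, as were most peaks of the control lists. Peak width is the one quantity the lists give for a call, and the narrowest peak in each list was 501 bp wide. The median width on the control-only regions was 501 bp in both control lists, with upper quartiles of 804 bp and 783 bp, and 50.3% and 54.2% of the regions had that smallest width. Over all peaks of the control lists the median was also 501 bp in both, and 51.34% and 51.78% had the smallest width. On regions called in all 4 lists the medians were 1558 bp and 1413 bp in control. On knockout-only regions they were 633 bp and 634 bp in knockout. Peaks exceeded 1000 bp in both control lists at 41 control-only regions (5.02%) and 2000 bp at 6, against 56.6% over 1000 bp among regions called in all 4 lists. The control peaks of a region overlapped by a median of 421 bp, or 76.8% of the shorter peak, and by less than 50% of it at 214 regions.

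**Figure D2:**
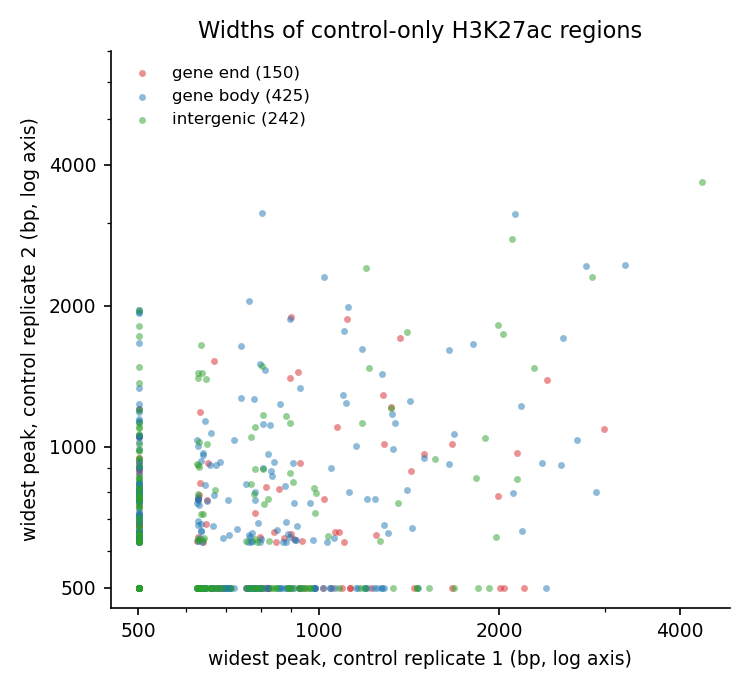
Width of the widest peak in control replicate 1 (x axis, bp, log) against control replicate 2 (y axis, bp, log) for each of the 817 control-only regions, coloured by place on genes. Points crowd at the smallest width of 501 bp on both axes, which 252 regions had in both lists, and 6 regions exceed 2000 bp in both.

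The share of regions called in both control lists that were missing from knockout fell with width. Of 1773 regions whose narrower control peak had the smallest width, 34.0% were control-only. The share was 13.5% of 1290 regions from 502 to 1000 bp, 3.33% of 1050 from 1001 to 2000 bp and 0.691% of 868 over 2000 bp. The mirror set followed the same order, at 43.1%, 22.7%, 6.42% and 1.37%. The wide control-only regions described below were thus the rare end of the distribution.

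Gene bodies and intergenic stretches held most control-only regions, and gene ends few. A region was assigned to a gene end if it touched the 1 kb on either side of an annotated transcription start, or of either end of a gene whose start is not in the promoter table, otherwise to a gene body if it touched a gene span, and otherwise called intergenic. Introns and exons could not be told apart with the gene table used. Gene ends held 150 control-only regions (18.4%, exact 95% binomial interval 15.8 to 21.2), gene bodies 425 (52.0%, 48.5 to 55.5) and intergenic stretches 242 (29.6%, 26.5 to 32.9); these intervals cover counting error only. Over all merged regions the shares were 26.0%, 48.7% and 25.3%. Among regions called in all 4 lists gene ends held 51.6%, and among knockout-only regions 45.1%.

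The gap between both one-sided sets was largest at gene ends. Of 2046 gene-end regions called in both control lists 150 were control-only (7.33%), while of 3000 called in both knockout lists 585 were knockout-only (19.5%). In gene bodies the shares were 23.7% and 24.0%, and between genes 21.2% and 22.1%. At the smallest width the gene-end shares were 18.9% for control-only and 48.1% for knockout-only regions, and above it 2.96% and 10.8%. Gene-body regions of the smallest width gave 40.1% in both directions, and intergenic ones 42.3% and 40.3%. Above that width gene-body regions gave 11.1% for control-only and 12.7% for knockout-only, and intergenic ones 8.22% and 11.4%. Presence of H3K4me3 went with a lower share as well: 16 of 414 regions (3.86%) with H3K4me3 in both control lists were control-only, against 779 of 3959 (19.7%) with H3K4me3 in neither control list. The mirror set did the same. By the same control H3K4me3 calls, 15 of 473 regions called in both knockout lists (3.17%) were knockout-only, against 1191 of 4741 (25.1%).

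**Figure D3:**
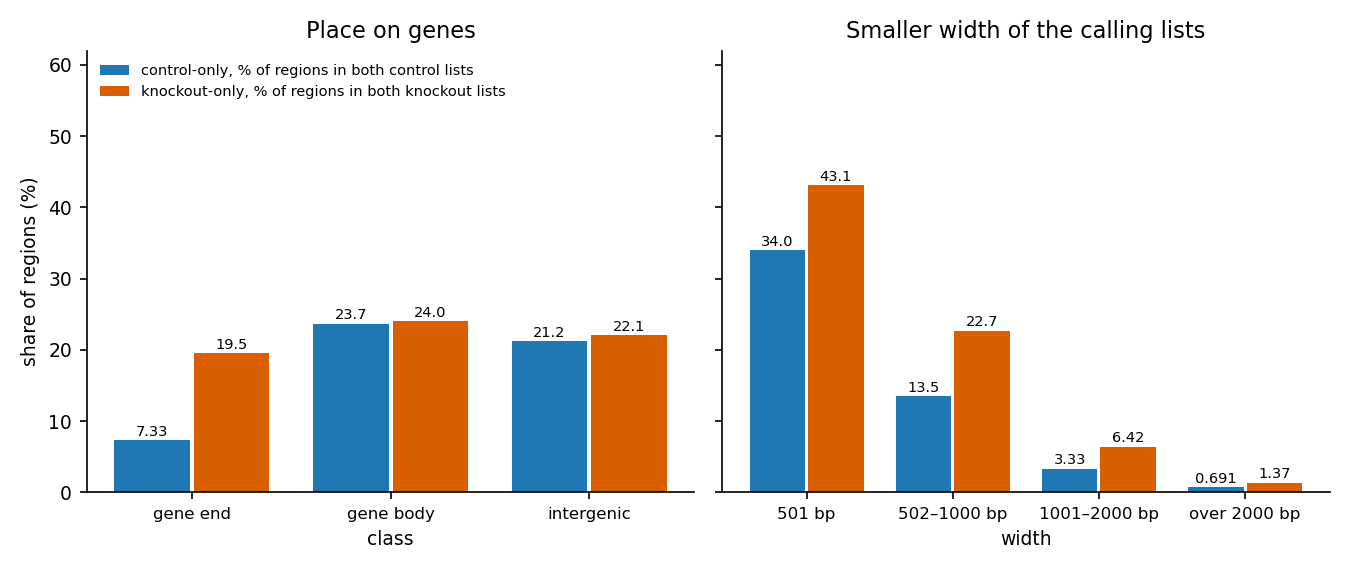
Share of regions (y axis, %) that are control-only among those called in both control lists (blue) and knockout-only among those called in both knockout lists (orange), by place on genes (left) and by the narrower width of the calling lists (right). At gene ends the bars stand at 7.33% and 19.5%, in gene bodies at 23.7% and 24.0%, and both sets fall from the smallest to the largest width.

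Among control-only regions at the end of a named protein-coding gene, the widest by the narrower of both control peaks lay over the neighbouring starts of Tcta and Rhoa. Rhoa encodes a small GTPase that controls the actin cytoskeleton. The region at chr9:108306173-108307999 had peaks of 1364 bp and 1707 bp in control replicates 1 and 2, and the nearest knockout peak lay 2744 bp away. At Capns1, the regulatory subunit of the calpain proteases, the peaks at chr7:30195516-30197387 were 1113 bp and 1872 bp wide. At Zfp958 the region at chr8:4611160-4614180 had 2987 bp and 1091 bp, so the lists differed in width by more than the narrower peak.

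A shared start of the purine synthesis genes Ppat and Paics came next. Ppat encodes the enzyme of the first committed step and Paics one of the later steps, and the region at chr5:76951378-76952561 had peaks of 1072 bp and 1100 bp. Atic, which catalyses the last steps of the same pathway, also had a control-only region at its start, at chr1:71557029-71558185, with 670 bp and 501 bp and the nearest knockout peak 61068 bp away. Of the 20 listed genes of replication and nucleotide synthesis these 3 held a control-only region, with Ppat and Paics sharing the same one. All lay at a gene end, where 0.48% of all protein-coding genes had one. The list was drawn up with earlier results of these data known, so nothing is read from the count. Mcm2 and Mcm7, which encode subunits of the replicative helicase, were called at a gene end in all 4 lists. Nothing was called at Atic in either knockout list, from 1 kb before to 1 kb after the gene, whereas Ppat kept 2 peaks in each knockout list and Paics 2 and 1. Without its control-only region, Atic had 501 and 0 called bases in control, so nothing is read from its absence in knockout.

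The other 6 of the 10 widest gene-end regions at named genes came next in width. Nfib, a transcription factor of the nuclear factor I family, had 1287 bp and 1012 bp at chr4:82505665-82507319, but a knockout peak lay only 30 bp away. Zbtb43, a BTB zinc finger gene, had 2142 bp and 969 bp at chr2:33466418-33468559. Cbx5, which encodes the heterochromatin protein HP1 alpha, had 932 bp and 923 bp at chr15:103215264-103216292 and a further control-only region of 730 bp and 669 bp in its body. Pml, the scaffold of PML nuclear bodies, had 898 bp and 1889 bp at chr9:58248008-58250106, with a knockout peak 91 bp away. Mtrr, which reactivates methionine synthase, shares its start with Fastkd3, a gene of mitochondrial RNA metabolism, and had 1498 bp and 968 bp at chr13:68581165-68583306. The last of the 10, at Ptpa, an activator of protein phosphatase 2A, had 1424 bp and 890 bp at chr2:30441330-30442932.

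At some of these genes acetylation was called elsewhere in knockout. Over the span of Cbx5 and 1 kb either side, the control lists held 4 and 4 peaks and the knockout lists 2 and 8. Pml had 3 and 1 control peaks against 0 and 4 in knockout, so the knockout lists differed as much from each other as from control. Nfib had 7 and 3 against 5 and 3, and Capns1 2 and 2 against 2 and 3. Other genes of the same 10 regions had fewer peaks in each knockout list than in either control list: Zfp958 had 2 and 2 against 0 and 1, Mtrr 3 and 2 against 1 and 1, and Fastkd3 1 and 1 against 0 and 0. Control counts include the control-only region itself. Without it, called bases at Zfp958 were 501 and 0 in control against 0 and 501 in knockout. At Mtrr they were 1002 and 501 against 2862 and 2199. At Fastkd3 they were 0 in all 4 lists, so its peak counts follow from the choice of regions.

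The 10 widest regions in the body of a named gene had a narrower control peak of 1174 bp or more. Dpp6, which encodes an auxiliary subunit of voltage-gated potassium channels, had the widest, with 3239 bp and 2444 bp at chr5:27241845-27245083. In Rapgef1, an exchange factor for the GTPase Rap1, the peaks were 2787 bp and 2434 bp at chr2:29726788-29730366, with a knockout peak 147 bp away. In Smad7, the inhibitory SMAD that dampens TGF-beta signals and is itself induced by them, they were 2122 bp and 3141 bp at chr18:75378250-75381457. At its gene end Smad7 was called in all 4 lists.

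Kit and Map2k1 each held 2 control-only regions. In Kit, the receptor of stem cell factor, one had 1807 bp and 1660 bp at chr5:75598122-75600009 and the other 862 bp and 501 bp at chr5:75576450-75577311. In Map2k1, which encodes MEK1, an enzyme that PD0325901 inhibits in every library, one had 1421 bp and 1255 bp at chr9:64218233-64219843 and the other 702 bp and 501 bp at chr9:64220714-64221415. Etv5, an ETS factor of the FGF and ERK response, had 1182 bp and 1618 bp at chr16:22395679-22398106. Called bases over the whole of Etv5 were 14615 and 16793 in control and 16881 and 18352 in knockout, so the gene as a whole carried no fewer in knockout. For Map2k1 they were 8983 and 9707 against 9420 and 9713. For Kit they were 4145 and 2161 against 1595 and 1184, but without its 2 control-only regions the control values were 1476 and 0, so the higher control totals rested on the regions chosen. The FGF and ERK list of 21 genes held 1 with a control-only region, Etv5, against 2.19% of all protein-coding genes.

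Of the other 4 regions, 2 lay in genes with no knockout peak at all. Jdp2, a bZIP repressor of AP-1, had 2550 bp and 1707 bp at chr12:85618643-85621886. Bcor, a corepressor found in a variant Polycomb complex, had 1274 bp and 1429 bp at chrX:12122483-12124133, and the nearest knockout peak lay 115973 bp away. Tulp3, which carries receptors into cilia, had 1647 bp and 1611 bp at chr6:128334485-128336613. Neither Bcor nor Tulp3 had a peak in either knockout list anywhere over the gene. Without the control-only regions, called bases in control were 0 and 501 at Bcor and 0 and 947 at Tulp3. Little else was thus called there in control, and nothing is read from the absence. Pde4d, a cyclic AMP phosphodiesterase, had 1326 bp and 1174 bp at chr13:109643814-109645756 and kept 7 and 8 peaks elsewhere in knockout.

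Between genes lay the widest control-only region of all. It spanned chr10:44389179-44394255, 24879 bp from Atg5, an autophagy gene, with peaks of 4350 bp and 3665 bp, and the nearest knockout peak was 15605 bp away. A region 20458 bp from Eps8, a regulator of actin, had 2852 bp and 2309 bp at chr6:137669856-137672713, with a knockout peak 327 bp away. One 82751 bp from Fam3c, which encodes a secreted protein, had 2099 bp and 2783 bp at chr6:22438833-22442101. These 3 were among the 6 regions over 2000 bp in both control lists, and the other 3 were those in Dpp6, Rapgef1 and Smad7.

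The next 7 intergenic regions were between 1197 bp and 2408 bp wide in either control list. One lay 23546 bp from Dmrt1, a transcription factor of the germline, with 1988 bp and 1823 bp at chr19:25479734-25482071. Another lay 9180 bp from Ksr1, a scaffold that joins RAF and MEK, with 2286 bp and 1471 bp at chr11:79001093-79004259, and another 1714 bp from Tada3, a subunit of acetyltransferase complexes, with 1319 bp and 1211 bp at chr6:113363454-113364918. The remaining 4 had Tmem17, Rcc2, Pcdh9 and Pramel30 as nearest named genes. The distance to the nearest named protein-coding gene had a median of 21887 bp over the 242 intergenic regions and exceeded 100 kb at 54. The nearest gene is given for orientation and is not shown to be a target.

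Knockout peaks often lay close to a control-only region. The median distance to the nearest knockout peak was 2922 bp, with quartiles of 748 bp and 14176 bp. A knockout peak lay within 500 bp of 151 regions (18.5%), within 1 kb of 235 (28.8%) and within 10 kb of 577 (70.6%), while 55 regions had none within 100 kb. Of the 235, peaks of both knockout libraries were within 1 kb of 56. For knockout-only regions the median distance to a control peak was longer, 5345 bp, and 25.3% had one within 1 kb.

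**Figure D4:**
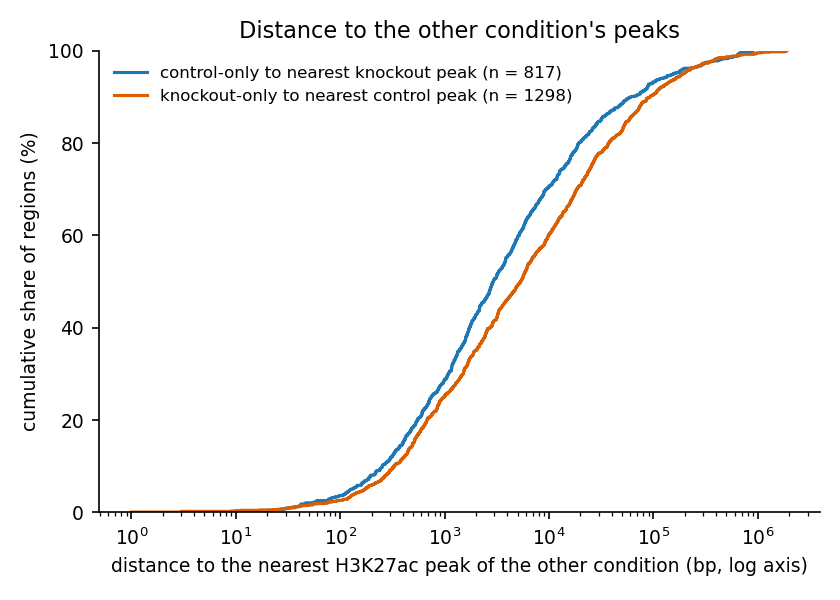
Cumulative share of regions (y axis, %) against the distance to the nearest H3K27ac peak of the other condition (x axis, bp, log), for 817 control-only regions (blue) and 1298 knockout-only regions (orange). The blue curve lies to the left, with medians of 2922 bp and 5345 bp.

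At the edge of the rule, single bases decided membership. The control-only region nearest to a knockout peak, at Timm23, a gene of the mitochondrial import machinery (chr14:32197420-32198248), lay 6 bp from it, and regions at Pds5a and at Mylpf and Septin1 lay 15 bp away. All 3 had 501 bp in both control lists. Just outside, a region at Zfp296 (chr7:19576917-19578058) with 501 bp in both control lists overlapped a peak of knockout replicate 2 by 1 bp, and regions at Magi1 and Adipor2 overlapped a knockout peak by 6 bp and 10 bp. The 1251 regions called in both control lists and 1 knockout list had the same median for the narrower control peak, 501 bp, and their lone knockout peak had a median width of 815 bp.

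Control-only regions lay mostly alone. The median distance between neighbours on a chromosome was 1410 kb, and 632 of the 817 had no other within 100 kb. The other 185 formed 87 groups, of which 11 had 3 regions and none had more. In Dock5, an exchange factor for the GTPase Rac, 3 regions fell within 7774 bp (chr14:67886729-67894502), with peaks of 501 to 1102 bp in control replicate 1 and 824 to 1768 bp in replicate 2. Over Dock5 as a whole the control lists held 6 and 7 peaks with 4110 and 7100 called bases, and the knockout lists 3 and 2 peaks with 1711 and 1002. Without the 3 regions the control lists held 1628 and 2840 called bases, which overlap the knockout values.

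The other 4 tightest groups of 3 lay near Zfp180, over Usp7, in Myh9 and at Atp2a2. The tightest of all spanned 5476 bp at chr7:24072488-24077963, 3913 bp or more from Zfp180, a zinc finger gene. At Usp7, a deubiquitinase that stabilises p53 and MDM2, the group at chr16:8745987-8767270 also held 3 knockout-only regions, so calls of both kinds lay in the same stretch. Myh9 encodes the heavy chain of non-muscle myosin IIA, and its group spanned 45875 bp. Called bases over Myh9 were 14934 and 13261 in control and 13993 and 20101 in knockout, which overlap. At Atp2a2, the calcium pump SERCA2, they were 6972 and 6973 against 3440 and 4608, and 5709 and 5532 in control without the control-only regions.

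Taking whole genes, 466 named protein-coding genes held at least 1 control-only region at an end or in the span. Of these, 315 (67.6%) had another H3K27ac peak over the gene or within 1 kb of it in both knockout lists, 67 in 1 of them and 84 (18%) in neither. The same shares were not counted over all protein-coding genes, so nothing is read from them. Called bases in both control lists exceeded those in both knockout lists at 179 of the 466 genes, and the reverse was found at 36. Over all protein-coding genes these patterns were found at 2.88% and 8.76%. The count of 179 is favoured by the choice of these genes, and nothing is read from it. With the control peaks on control-only regions left out, the counts were 37 and 93, which the choice favours in the other direction.

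Of the 365 listed genes of 22 pathways and cell types found in the gene table, 6 had a control-only region at a gene end and 19 at an end or in the span. Over 21887 protein-coding genes the shares were 0.48% at a gene end and 2.19% at an end or in the span. The lists were drawn up with earlier results of these data known. No list gave more than 4 genes, and 10 of the 22 gave none, among them the LIF, Wnt, BMP, Polycomb, mesoderm, germline and imprinted lists.

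The Nodal and TGF-beta list had the most, 4 of 14 genes. Lefty2, a secreted inhibitor of Nodal, had peaks of 501 bp and 501 bp at its start (chr1:180892880-180893449) and no peak over the gene in either knockout list. Without that region the control lists had no called bases over Lefty2 either, so the absence follows from the choice of regions. Smad3, the signal transducer, had 501 bp and 658 bp in its body (chr9:63735239-63736259), and Pmepa1, a target gene that limits the pathway, had 769 bp and 501 bp (chr2:173230322-173231471). The fourth was Smad7, described above. Over the whole gene, called bases at Smad7 were 6325 and 6306 in control against 3325 and 4695 in knockout, and at Pmepa1 4994 and 4069 against 1635 and 1002. These control totals include the regions chosen. Without them Smad7 had 4203 and 3165 called bases in control, which overlap the knockout values, and Pmepa1 had 4225 and 3568. Nodal itself and its co-receptor Tdgf1 were called at a gene end in all 4 lists.

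None of the 25 naive and core pluripotency genes held a control-only region, against 2.19% of all protein-coding genes. At that share a list of this size can easily hold none, so nothing is read from it. Of these genes 11 were called at a gene end in all 4 lists, among them Pou5f1, Sox2, Nanog, Klf2 and Klf4. The same share over all genes is not given here. Of the m6A machinery, 2 of 20 genes held one, both subunits of the writer complex: Virma with 640 bp and 501 bp and Zc3h13 with 501 bp and 501 bp, both in the gene body. Among the enzymes and cofactors of H3K27 acetylation 3 of 21 did: the acetyltransferases Kat6b with 1163 bp and 501 bp and Kat2b with 644 bp and 501 bp, and the corepressor Ncor1 with 721 bp and 501 bp. The acetyltransferase Ep300 and the acetyl reader Brd2 were called at a gene end in all 4 lists.

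Single genes of other lists included Ash2l, a core subunit of H3K4 methyltransferases (501 bp and 501 bp), the housekeeping gene Ywhaz (628 bp and 629 bp) and the trophectoderm factor Gata3 (742 bp and 1271 bp). These 3 lay in gene bodies. Gata3 had 742 and 1271 called bases in control and 823 and 831 in knockout. One control-only region touched an annotated microRNA gene, Mir5124a, on chromosome 13 with 633 bp and 1184 bp.

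H3K4me3, which the choice of regions did not use, was called at few control-only regions and at more of them in knockout. Peaks lay on 26 regions (3.18%) and 28 (3.43%) in the control lists and on 44 (5.39%) and 44 (5.39%) in the knockout lists. Both knockout values lay above both control values. The means were 3.3% ± 0.173 in control and 5.39% ± 0.0 in knockout (SD, n = 2), a difference of 2.08 percentage points or 1.63-fold (exact two-sided permutation test over the 4 lists, p = 0.333, which is the smallest p that 2 against 2 can give). Over all merged regions the means were 4.15% and 13.5%, 3.24-fold, and on knockout-only regions 4.7% and 32.2%. Relative to the share over all regions in the same list, control-only regions carried H3K4me3 at 0.762 and 0.829 times that share in control and at 0.4 and 0.4 times in knockout (exact permutation p = 0.333). The knockout H3K4me3 lists were longer than the control ones, so the share of each list was taken as well.

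Seen from the H3K4me3 lists, the direction was the opposite. Of the H3K4me3 peaks of a list, 0.909% and 1.15% lay on control-only H3K27ac regions in control and 0.541% and 0.546% in knockout, again without overlap. The difference was −0.487 percentage points, or 0.528-fold (1.03% ± 0.171 against 0.544% ± 0.00361, SD, n = 2; exact permutation p = 0.333). With H3K4me3 lists brought to equal length by taking the widest peaks, the share of control-only regions with H3K4me3 also turned round, to 3.24% in control and 2.39% in knockout, a difference of −0.857 points (exact permutation p = 0.333).

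**Figure D5:**
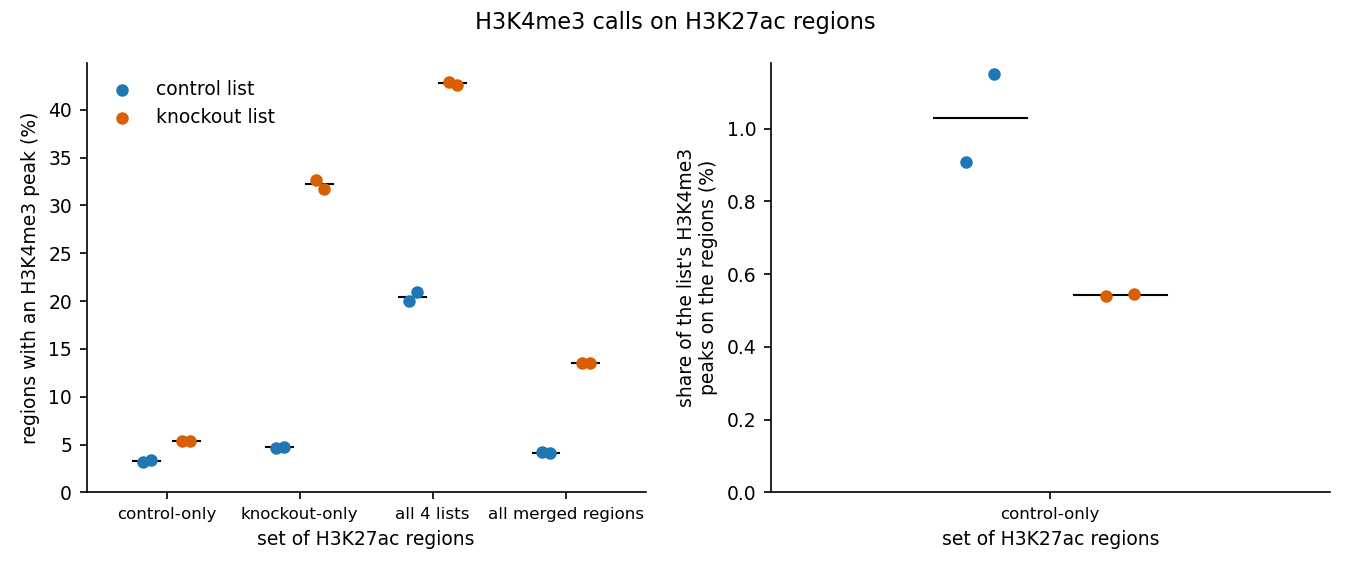
Left, share of H3K27ac regions (y axis, %) that hold an H3K4me3 peak, for 4 sets of regions; points are single control (blue) and knockout (orange) lists and lines are means. Right, share of each list's H3K4me3 peaks (y axis, %) that lie on control-only regions. On the left the control and knockout means lie closest for the control-only regions, at 3.3% and 5.39%, and on the right the control points lie above the knockout points.

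Nearly all of this H3K4me3 stood at gene ends. Of the 150 gene-end control-only regions 23 (15.3%) and 22 (14.7%) held an H3K4me3 peak in control and 38 (25.3%) and 41 (27.3%) in knockout, whereas in the 425 gene-body regions there were at most 5 in any list. The gene-end means were 15.0% ± 0.471 in control and 26.3% ± 1.41 in knockout (SD, n = 2), 1.76-fold (exact permutation p = 0.333). Over all gene-end H3K27ac regions the means were 14.7% in control, close to the control-only value, and 47.7% in knockout. For knockout-only gene-end regions they were 9.91% and 67.4%.

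Region by region, H3K4me3 was called in both knockout lists at 28 control-only regions (3.43%), against 10.9% of all merged regions. It was called in both knockout lists and in no control list at 9 (1.1%), against 5.64% of all, and in both control lists at 16 (1.96%), against 1.75%. None had it in both control lists and in no knockout list, a pattern that only 4 of all merged regions (0.011%) showed. The regions below are named by width of the H3K27ac peaks or because they belong to these small groups, the second choice having been made after their values were seen.

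At 9 regions control-only acetylation therefore met knockout-only H3K4me3. At Zfp958, whose promoter is printed above, no H3K4me3 peak was called in control, and peaks of 1188 bp and 947 bp were called in knockout. Stt3a, the catalytic subunit of an oligosaccharyltransferase, had H3K4me3 peaks of 2295 bp and 2077 bp, the widest of the 9. Ubald2 had 2073 bp and 1641 bp, Eif3m, a translation initiation factor subunit, 1412 bp and 1157 bp, and Thrap3, a splicing and transcription cofactor, 1778 bp and 962 bp. The other 4 lay at Stx5a, Epb41l1, Naa25 and the start shared by Arfip2 and Timm10b. H3K27ac at 7 of the 9 stood at the smallest width in at least 1 control list, the other 2 being Zfp958 and Ubald2.

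H3K4me3 was called in all 4 lists at 13 control-only regions, 12 of them at gene ends. The median widths of their H3K4me3 peaks were 704 and 730 bp in control, against 1167 and 914 bp in knockout. The mean knockout width exceeded the mean control width at 13 of 13, by a median of 1.59-fold (0.67 on the log2 scale) and a range of 1.1 to 2.35-fold. Both knockout widths exceeded both control widths at 11 of the 13 (84.6%), against 93.0% of the 616 merged regions with H3K4me3 in all 4 lists, whose median was 2.05-fold. At these 13 regions, then, H3K27ac was called in control alone while H3K4me3 was called throughout, with wider peaks in knockout.

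At Mtrr and Fastkd3 the H3K4me3 peaks were 635 and 733 bp wide in control and 2450 and 649 bp in knockout, where the knockout libraries lay on both sides of control. For Zbtb43 the widths were 772 and 730 bp against 878 and 884 bp, for Uri1, a prefoldin-like protein, 501 and 784 bp against 994 and 1026 bp, and for Gopc, a Golgi scaffold, 704 and 501 bp against 801 and 771 bp. Gorasp2, a Golgi stacking protein, had 642 and 501 bp against 1167 and 1163 bp, and Atp2c1, the Golgi calcium pump, 834 and 501 bp against 1488 and 1653 bp. Sptlc2, a subunit of the first enzyme of sphingolipid synthesis, had 501 bp in both control lists against 1047 bp and 914 bp. In Zbtb43, Uri1, Gopc, Gorasp2, Atp2c1 and Sptlc2 both knockout widths lay above both control widths. The other named regions with H3K4me3 in all 4 lists lay at Mrps24, Akirin1 and Nkap and in the body of Kif2c. H3K4me3 was called in both knockout lists and control replicate 1 at Set, Katnbl1 and Chm, and in both control lists and knockout replicate 1 at Dhrs7b and at Ubl4a and Slc10a3.

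At the wide gene-end regions H3K4me3 was not uniform. At Tcta and Rhoa it was 686 bp wide in control replicate 2, 762 and 1368 bp in the knockout lists and not called in control replicate 1. At Ppat and Paics it was called in both control lists (639 bp and 501 bp) and in knockout replicate 2 alone (2738 bp). At Nfib it was called in knockout replicate 2 alone (1995 bp) and at Pml in knockout replicate 1 alone (501 bp). Capns1, Cbx5 and Ptpa had none in any list. Of the 10 widest regions in named gene bodies, 9 had no H3K4me3 in any list and that in Jdp2 had 501 bp in knockout replicate 1.

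H3K27me3 was nearly absent from the control-only regions. It was called at 2 and 3 regions in control (0.245% and 0.367%) and at 2 and 4 in knockout (0.245% and 0.49%). No list had it at 809 regions (99.0%), against 97.7% of all merged regions. The groups overlapped, and the difference was 0.0612 percentage points (0.306% ± 0.0865 against 0.367% ± 0.173, SD, n = 2; exact permutation p = 1.0). Of the H3K27me3 peaks of a list, 0.0317% and 0.0416% lay on these regions in control and 0.0176% and 0.0349% in knockout (exact permutation p = 0.667). Over all merged regions the mean shares with H3K27me3 were 0.604% in control and 1.16% in knockout. H3K27me3 was called in both control lists at 0.122% of control-only regions, against 0.156% of all. In both knockout lists the shares were 0.122% and 0.486%. None of the control-only regions had it in both control lists and in no knockout list, against 0.0329% of all.

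Only 2 control-only regions carried H3K27me3 in both lists of a condition. In the body of Nrxn2, a synaptic adhesion gene, peaks of 1050 and 636 bp were called in control and one of 1026 bp in knockout replicate 1. At the start of Lancl3 (chrX:9199886-9200766) peaks of 627 bp and 501 bp were called in knockout and none in control, the sole control-only region with H3K27me3 in both knockout lists and in no control list, a pattern found at 0.258% of all merged regions. Its H3K27ac peaks were 501 bp wide in both control lists and shared 121 bp.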

How the data were processed

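Peak lists of H3K27ac, H3K4me3 and H3K27me3 from 2 control and 2 knockout libraries each were grouped by title. The submitters' processing notes name Bowtie2 2.4.1, HOMER, Trimmomatic 0.38, CASAVA, SAMtools and build mm10 without saying what each did. How peaks were called, and whether inputs and spike-in reads entered, is not given in the sources used here. The deposited BED tables hold 1 list per library, so replicates were called separately. Their deposited score is the same for every peak, and only peak starts and ends (positions in bp) were used.

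Regions, places on genes (RefSeq, GRCm38.p6, the assembly of mm10) and overlaps of at least 1 bp were computed with Python 3.11.15, pandas 2.3.3, numpy 2.4.6 and SciPy 1.17.1. Promoter entries were at hand for 17492 of 21887 protein-coding genes, and both gene ends were used for the others. Shares per list were compared by exact two-sided permutation tests. As a check of the code, 200 control-only regions were planted in the H3K27ac lists, away from called peaks. Their control peaks always overlapped, and 200 of 200 were recovered with 0 extra. Regions close to other peaks were not planted. Depth per library is unknown. Named were the 10 widest regions per place by the narrower control peak, regions with H3K4me3 or H3K27me3 in both lists of a condition, the 5 tightest groups, list members and the regions at the edge of the rule; predicted genes were counted and not named, and a few listed genes are left out of the text. The members and lists were chosen with earlier results of these data known. Alternatives were overlap, width, window and list length, a replicate block and leaving out each library.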

Additional observations from a re-analysis of the deposited data

How the results depend on the processing

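The number of control-only regions, 817, fell to 356 when only peaks above the smallest width were used and to 215 when only control peaks had to exceed it; the other 4 settings with all libraries moved it by less than 1.5 times. Leaving out 1 H3K27ac library gave 1450 to 7897 regions: 1450 without knockout replicate 1, 1456 without knockout replicate 2, 6614 without control replicate 1 and 7897 without control replicate 2, since fewer lists then define the set. The gene-end share of 18.4% became 21.3% with peaks above the smallest width, 15.4% with a window of 500 bp, 26.2% with 2500 bp, 11.9% with protein-coding genes only, 20.6% with both ends of every gene (an alternative chosen after seeing the data), and 14.9 to 24.2% without 1 library.

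The difference in control-only regions with H3K4me3, 2.08 points, turned to −0.857 with H3K4me3 lists of equal length, kept its sign under the other 16 alternatives and spanned 1.62 to 5.76 without 1 library, with 5.76 and 4.74 when H3K27ac knockout replicate 1 or 2 was left out. The share of H3K4me3 peaks on the regions kept its sign in 17 of 17, from −1.27 to −0.103. For H3K27me3, which rests on 2 to 4 regions a list, the difference of 0.0612 points became −0.0829 with control peaks sharing 50% of the shorter, −0.122 with lists of equal length, 0.0 with only control peaks above the smallest width, 0.428 (0.49% against 0.918%, exact permutation p = 0.333) when an H3K27me3 peak within 1000 bp was counted, and −0.0612 to 0.241 without 1 library. The share of H3K27me3 peaks, −0.0104 points, became 0.00441 with peaks above the smallest width, 0.0 with only control peaks above it, and −0.374 to 0.016 without 1 library. The cause of these turns was not tested.

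With the replicate number as a block, the H3K4me3 differences were 2.08 and −0.487 points (exact sign-flip permutation p = 0.5 for both, the smallest that 2 pairs allow). Nothing in the labels says that a shared number marks a shared batch. Depth limits every absence of a call, as read numbers are unknown.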

Other observations

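The order of peaks in the deposited lists was close to an order by width. Spearman's correlation of place in the list and width, across peaks within a list and given as a description, was between −0.895 and −0.844 in the 4 H3K27ac lists. Control peaks on control-only regions stood at a median of 51.1% and 53.3% of the way down the control lists, close to the middle. Knockout peaks on knockout-only regions stood at 45.3% and 46.1% of the way down the knockout lists. Control peaks on regions called in all 4 lists stood at 13.9% and 15.7%. Among the first 10% of each control list, 10 and 6 peaks lay on control-only regions, against 1335 and 1188 on regions called in all 4 lists. What the order stands for is not given in the sources used here.

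Chromosome 11 held the most control-only regions, 80. As a share of the merged regions of a chromosome they ranged from 1.45% on chromosome 8 to 3.09% on the X chromosome.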
